A study of Mus musculus with 18 samples.

Results

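The Toll-like receptor and CD180 genes were followed here through their accessible chromatin in B cells and T cells cut from mouse spleen sections. The named genes were Cd180, Ly86, Ly96, Tlr1, Tlr4, Tlr6, Tlr9, Irak4 and Myd88. A region of the deposited table counted as a member when the nearest end of a protein-coding gene, within 50 kb, belonged to 1 of these 9 genes. The rule found 29 of the 27396 regions, and 8 of the 9 genes had at least 1 of them. Cd180 had 3 regions, Ly86 6, Ly96 6, Tlr1 8, Tlr4 1, Tlr6 2, Tlr9 1, Irak4 2 and Myd88 0. The genes were chosen with the B to T difference in tissue patches already known, so their values in patches are given as a description, without p-values.

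The assay was ATAC-seq, in which a transposase inserts adapters into open DNA and reads gather where chromatin is accessible. The spleens came from wild-type (wt) C57BL/6J mice, and no group carried any other genotype or treatment. B patches (n = 5 libraries) and T patches (n = 5) were each pooled from areas labelled as about 1000 cells. B 100 nuclei (n = 4) and T 100 nuclei (n = 4) were built from nuclei captured singly. Transposition took place in the frozen section, B and T cells were told apart by immunostaining, and the captures were made by laser microdissection. Neither the stained antigens nor the animals' ages are stated in the labels. The labels call the libraries of a group technical replicates and tie none to an animal, so each p-value measures only the spread between these libraries.

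Toll-like receptors are membrane proteins that recognise microbial molecules and mostly signal through the adaptor MyD88, which gathers IRAK4 and further kinases and leads to NF-kB activation. CD180, also called RP105, is a relative of TLR4 that lacks a signalling domain of that kind. It reaches the surface of B cells together with MD-1, the product of Ly86, much as TLR4 is carried with MD-2, the product of Ly96. In the spleen B cells fill the follicles and T cells the periarteriolar sheath, and macrophages and dendritic cells, which also use these receptors, lie among them.

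These sequences lie under the regions at 3 gene starts where no B patch overlapped a T patch. They are from RefSeq promoter entries of GRCm38.p6 (the same coordinates as mm10), and all are on the plus strand. Capitals mark the octamer ATGCAAAT, bound by Oct factors, and the core GGAAGT of the ETS family, to which the B-lineage factor PU.1 belongs, each searched on both strands. For Cd180 the part of the entry under the deposited region is shown, and for Ly86 and Tlr9 the 250 bases before the start site, which the deposited regions cover.
Cd180 (chr13:102693339-102693534): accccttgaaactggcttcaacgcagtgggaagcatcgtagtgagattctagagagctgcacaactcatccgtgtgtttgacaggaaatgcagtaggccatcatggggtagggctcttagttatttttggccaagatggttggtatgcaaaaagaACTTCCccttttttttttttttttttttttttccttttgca
Ly86 (chr13:37345095-37345344): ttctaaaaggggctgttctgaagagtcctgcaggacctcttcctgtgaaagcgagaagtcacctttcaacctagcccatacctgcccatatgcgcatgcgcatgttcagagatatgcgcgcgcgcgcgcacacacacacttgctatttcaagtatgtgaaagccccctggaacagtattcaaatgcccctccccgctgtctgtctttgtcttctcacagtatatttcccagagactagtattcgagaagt
Tlr9 (chr9:106222348-106222597): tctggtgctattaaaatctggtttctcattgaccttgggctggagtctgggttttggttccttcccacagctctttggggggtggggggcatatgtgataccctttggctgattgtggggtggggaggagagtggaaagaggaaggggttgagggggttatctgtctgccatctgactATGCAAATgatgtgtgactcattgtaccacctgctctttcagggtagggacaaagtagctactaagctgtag
The Cd180 stretch held the ETS core on its minus strand, the Ly86 stretch held neither motif, and the Tlr9 stretch held the octamer. Of 32851 RefSeq promoter windows of 300 bases (250 before and 50 after each start), 1.74% held the octamer and 23.8% held GGAAGT. RefSeq windows matched 7 of the 9 genes, 10 windows in all, since some genes had several starts. The octamer lay in 1 of the 10, that of Tlr9, and GGAAGT in 7 of the 10, at Cd180, Myd88, Tlr1, Tlr6 and Tlr9. The 2 Cd180 windows overlap and hold the same GGAAGT site, so the 10 windows are not all separate sequences. The longer GAGGAAGT, which overlaps GGAAGT, was in the windows of Tlr1 and Tlr9 and in 3.20% of all windows. A consensus NF-kB site (0.155% of all windows) and the early B-cell factor palindrome (0.904%) were in none of the 10 windows. An interferon-response pattern (3.44%) was in windows of Myd88 and Tlr6. The motifs were picked after the sequences had been seen, and a match describes letters, not binding.

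Patch libraries held 2713677 to 6553535 counts in B and 2193837 to 7343204 in T, and libraries of 100 nuclei 547333 to 720555 counts in B and 319481 to 1076765 in T. Mitochondrial regions took up to 45.8% of a library. The library numbered 2 was the shallowest of B patches and likewise of T patches, and T 100 nuclei libraries 3 and 4 had reads in only 3941 and 3300 regions. Levels are normalized CPM, counts scaled to a common library size (CPM) with TMM factors, given as mean ± SD. Differences are log2 fold changes of B over T with their standard error (SE), and "called" means an adjusted p under 0.05 in edgeR's quasi-likelihood test. Regions of 8 B-cell marker genes summed to 691 to 1227 normalized CPM in B patches and 146 to 259 in T patches. Regions of 8 of 9 T-cell marker genes (Cd4 had none) summed to 143 to 215 in B patches and 591 to 817 in T patches. At 100 nuclei the B-cell marker sums were 765 to 2490 in B libraries and 34.9 to 382 in T libraries. The T-cell marker sums overlapped there, at 109 to 236 in B libraries and 55.1 to 892 in T libraries. In bulk captures, fewer nuclei of a type and less open chromatin per nucleus cannot be told apart.

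Cd180 and Ly86, the receptor and its surface partner, were more accessible in B patches at all 3 regions of Cd180 and at the start of Ly86. All 3 regions of Cd180 had every B patch above every T patch. The strongest lay 3.84 kb upstream of Cd180 (chromosome 13, 102689561 to 102689709). There the B patches 1 to 5 had 56.1, 47.3, 24.5, 39.9 and 15.9 normalized CPM, against 0.508, 0, 2.78, 0.251 and 0 in T patches. T patches were close to empty, and the log2 fold change was 5.47 ± 0.96 (SE). It was 7.34 without T patch 3, the T library with the highest level there, and the region was called in 10 of 10 fits that left out 1 library. Those fits share most of their libraries, the same on which the genes were chosen, so that count is a description only.

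The region at the Cd180 promoter (102693339 to 102693534) ended 13 bp before the gene. It had 17.7, 49.6, 24.0, 39.7 and 30.2 normalized CPM in B patches, against 13.5, 0, 8.74, 13.3 and 4.45 in T patches. Of the 3 Cd180 regions it was the most accessible in T patches, with a mean of 32.2 ± 12.6 in B and 7.99 ± 5.81 in T (5 libraries each, SD) and a log2 fold change of 2.0 ± 0.76. It was not called. The remaining region, inside Cd180 and 6729 bp after its start (102700287 to 102700483), had 30.2, 60.6, 24.5, 23.0 and 11.1 normalized CPM in B patches, against 5.34, 0, 3.44, 1.25 and 2.89 in T patches. Its log2 fold change was 3.49 ± 0.86, and it was called with all libraries but not without B patch 1, 2, 3 or 4, nor without T patch 3, 4 or 5. Summed over its regions, Cd180 had a log2 fold change of 3.18 ± 0.59.

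The region over the start of Ly86 (chromosome 13, 37345007 to 37345466) had 73.7, 42.6, 45.8, 78.7 and 43.0 normalized CPM in B patches, against 27.0, 23.3, 8.61, 4.51 and 9.56 in T patches. The groups did not overlap, and T patches kept reads in all 5 libraries. The means were 56.7 ± 17.9 in B and 14.6 ± 9.89 in T (5 libraries each, SD), with a log2 fold change of 1.97 ± 0.50. The call was lost without B patch 1, 3, 4 or 5, or without T patch 3, 4 or 5. Inside Ly86, 8.59 kb from the start (37353933 to 37354080), B patches had 17.7, 17.3, 7.53, 21.6 and 10.5 normalized CPM, against 1.02, 3.22, 0, 0 and 0 in T patches. This region too had groups that did not overlap, at 4.21 ± 1.42, but was not called. A region 14.1 kb before Ly86 stood at 1.54 ± 1.29 with overlapping groups.

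Beyond the far end of Ly86 the log2 fold changes were smaller than at its start. The 3 regions there, at 15.1, 21.0 and 33.4 kb, had log2 fold changes of 0.38 ± 0.89, 0.13 ± 0.71 and 0.54 ± 0.65. The middle one turned below 0 when libraries were scaled by size alone, and kept its sign in 7 of 10 fits that left out 1 library. At 15.1 and 33.4 kb T patch 2 was the highest of all 10 libraries, at 20.9 and 48.2 normalized CPM. Outside the 50 kb limit, the next regions at Ly86 lay well beyond it, at 101.09 and 118.8 kb, and had log2 fold changes of -1.09 ± 1.08 and -2.32 ± 1.34.

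**Figure D1:**
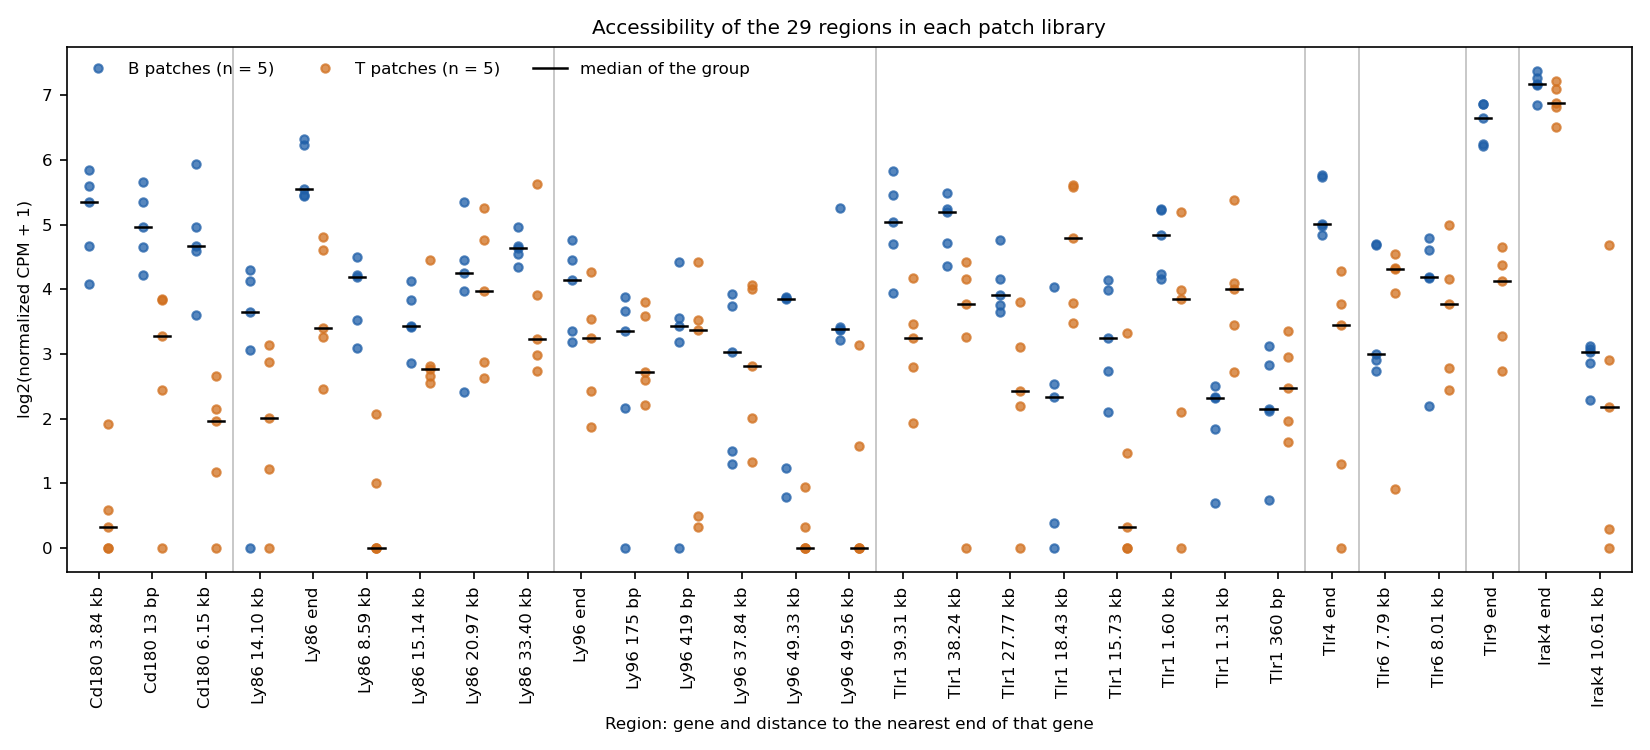
Accessibility of the 29 regions in each patch library, as log2(normalized CPM + 1), with 1 blue point per B patch library, 1 orange point per T patch library and a black bar at the group median; regions are named by gene and distance to the nearest end of that gene. Among others, B and T points are fully separate at all 3 Cd180 regions, the Ly86 start, Tlr4 and Tlr9, and mixed at Irak4.

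Tlr9, the endosomal receptor for unmethylated CpG DNA, was more accessible in every B patch than in any T patch. Its single region covered the whole RefSeq promoter window (chromosome 9, 106222234 to 106222709). B patches had 72.9, 115, 115, 99.2 and 75.2 normalized CPM, against 8.64, 19.7, 5.69, 24.1 and 16.5 in T patches. The lowest B patch stood well above the highest T patch. The means were 95.6 ± 20.7 in B and 14.9 ± 7.63 in T (5 libraries each, SD), and the log2 fold change was 2.69 ± 0.41. The region was called in 10 of 10 fits that left out 1 library, which again is a description only. A joint fit of all 18 libraries called 0 of the members in patches. A region 3.226 kb from Tlr9, assigned to the closer gene Alas1, had a log2 fold change of 1.07 ± 0.89.

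Tlr4, the receptor for lipopolysaccharide, and Ly96, its partner MD-2, differed in how clearly their regions separated B from T. The Tlr4 region covered an end of the gene (chromosome 4, 66827488 to 66827951). It had 27.6, 53.6, 52.5, 31.3 and 30.5 normalized CPM in B patches, against 9.92, 0, 1.46, 18.5 and 12.7 in T patches. The groups did not overlap, with means of 39.1 ± 12.8 in B and 8.52 ± 7.78 in T and a log2 fold change of 2.19 ± 0.77, but the region was not called.

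The region at an end of Ly96 (chromosome 1, 16688168 to 16688468) had 20.9, 26.1, 16.7, 9.24 and 8.14 normalized CPM in B patches, against 10.7, 8.44, 4.37, 18.3 and 2.67 in T patches, a log2 fold change of 0.87 ± 0.81. Both groups spanned much the same range there. Regions 175 and 419 bp inside Ly96 and 37.8 kb beyond it had log2 fold changes between -0.15 and 0.26, each smaller than its SE. The 2 regions just inside the 50 kb limit, at 49.327 and 49.558 kb, differed more, at 4.89 ± 1.65 and 2.89 ± 1.36, on low levels. Their means were 8.56 ± 6.87 and 14.8 ± 12.5 normalized CPM in B patches, against 0.236 ± 0.402 and 1.95 ± 3.36 in T patches (5 libraries each, SD). The nearer of them overlapped between groups, and at the farther the B mean drew on B patch 2, which held 37.1. Neither was called.

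Tlr1 and Tlr6 are neighbours on chromosome 5, and their products pair with TLR2 to recognise bacterial lipoproteins. Tlr1 held the only members lower in B patches by more than their SE. All but 1 of its 8 regions lay beyond the far end of the gene. At 1.311 kb from that end (64923183 to 64923369), B patches had 4.65, 2.57, 0.627, 4.06 and 3.98 normalized CPM, against 9.92, 40.6, 16.2, 15.03 and 5.56 in T patches. Every B patch was below every T patch, with a log2 fold change of -2.44 ± 0.96. At the next region, 1.595 kb from the same end (64922834 to 64923085), the order was the other way, and B patches had 27.8, 16.9, 36.6, 36.7 and 17.8, against 13.5, 0, 3.31, 35.6 and 14.9 in T patches, and the log2 fold change was 1.01 ± 0.81 with overlapping groups.

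Further out the signs also mixed. At 18.4 kb (64906025 to 64906251) B patches had 0.300, 0, 4.81, 4.06 and 15.4 normalized CPM, against 10.2, 47.0, 48.1, 12.8 and 26.7 in T patches. The groups overlapped through B patch 5, and the log2 fold change of -2.53 ± 0.95 was -3.63 without that library. The 4 regions at 15.7, 27.8, 38.2 and 39.3 kb had log2 fold changes of 2.11 ± 1.41, 1.49 ± 0.97, 1.45 ± 0.73 and 1.94 ± 0.62. The region at 38.2 kb had the highest mean of the Tlr1 regions over all 10 patch libraries and averaged 32.2 ± 9.70 normalized CPM in B patches and 11.7 ± 7.91 in T patches (5 libraries each, SD). Near the start of Tlr1, a region 360 bp inside the gene (64933116 to 64933240) stood at -0.27 ± 1.23 on low levels. No Tlr1 region was called.

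Both Tlr6 regions lay inside the gene span. The one 7.79 kb from a gene end (64960880 to 64961056), 832 bp upstream of an annotated start, had 24.9, 24.6, 5.65, 6.99 and 6.48 normalized CPM in B patches, against 19.1, 18.9, 14.4, 22.3 and 0.889 in T patches. The log2 fold changes were -0.14 ± 0.82 there and 0.32 ± 0.74 at the neighbouring region (64961100 to 64961434). A further region within the Tlr6 span was closer to an end of Fam114a1, to which it was assigned, and stood at 0.55 ± 0.66. The B and T patches overlapped at all 3.

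Of the genes that act after the receptors, Irak4 had 2 regions and Myd88 none. Irak4 encodes the kinase that MyD88 recruits first. The region over its start (chromosome 15, 94543170 to 94543989) also spans an end of Pus7l, and its centre is closer to Irak4. It had 114, 142, 143, 153 and 165 normalized CPM in B patches, against 135, 148, 117, 112 and 90.5 in T patches. It was open in every patch library, with overlapping groups and a log2 fold change of 0.25 ± 0.24. The other Irak4 region, 10.6 kb inside the gene, stood at -0.11 ± 1.27, with 24.7 normalized CPM in T patch 1 against 0 to 6.49 in the other T patches. For Myd88 the nearest region (chromosome 9, 119341006 to 119341464) lay 0.988 kb away but closer to Acaa1a. It averaged 77.0 ± 46.7 normalized CPM in B patches and 79.7 ± 29.6 in T patches (5 libraries each, SD).

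**Figure D2:**
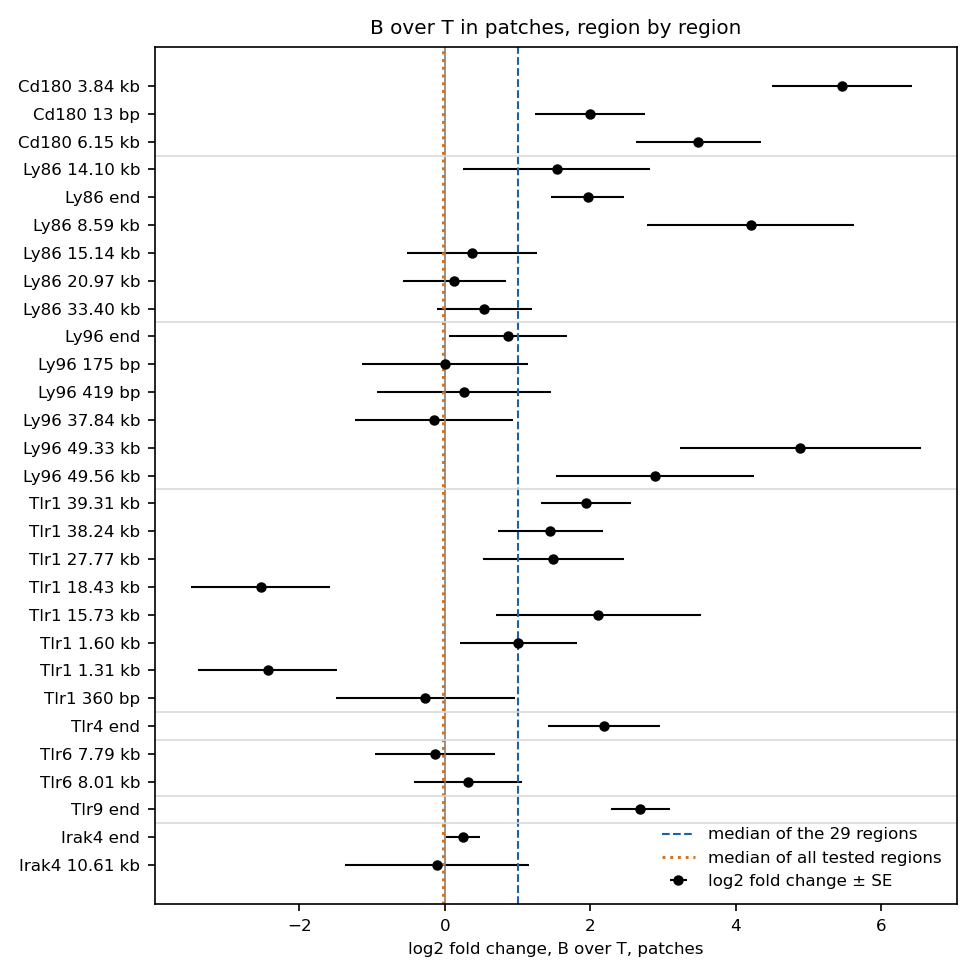
Log2 fold changes of B over T in patches for the 29 regions, as points with bars of ± 1 SE; the dashed line is the median of the 29 regions (1.01) and the dotted line the median of all tested regions (-0.03). Cd180 and Tlr9 lie to the right of 0, Tlr1 on both sides, and Tlr6 and Irak4 close to 0.

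All 29 regions passed the filter on low counts, so every member was tested with the 25712 regions that did. In patches 4 of 29 were called, all higher in B (2 of Cd180, 1 of Ly86 and 1 of Tlr9), where 1.22% of all tested regions were called higher in B, 1.05% higher in T and 2.27% either way. These calls were 314 higher in B and 269 higher in T over all regions. With scaling by library size alone they were 232 and 362, and 3 of the 29 regions were called, the Ly86 start no longer among them. Groups did not overlap at 8 of 29 regions with B higher, where 4.33% of all regions had this, and at 1 of 29 with T higher, where 3.69% did, and 8.03% either way. The median log2 fold change was 1.01 over the 29 regions and -0.03 over all tested, and 75.9% of the 29 lay above 0, where 48.7% of all did. Because the genes were chosen on this contrast, these shares are not evidence about them. At 10 of 29 regions the log2 fold change was smaller than its SE.

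At Tlr1 the difference did not follow distance from the gene, as the map of region positions shows. Per kb of region, the level in B patches was highest 3.84 kb before Cd180, at 248 normalized CPM per kb, followed by Tlr9 at 201, the Irak4 start at 175, the Cd180 promoter at 165 and the region inside Cd180 at 152. Per kb in T patches, the Irak4 start was highest at 147, followed by the Tlr1 regions at 18.4 kb with 128 and at 1.31 kb with 93.8. Relative to the group mean, the scatter between libraries was wider in T patches, where the levels of many members were low. The SD itself went either way. It was 20.7 in B and 7.63 in T at Tlr9, and 6.26 in B and 18.1 in T at the Tlr1 region at 18.4 kb. The coefficient of variation over the 29 regions was 13.3% to 127% in B patches (median 47.1%) and 18.4% to 176% in T patches (median 79.4%).

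**Figure D3:**
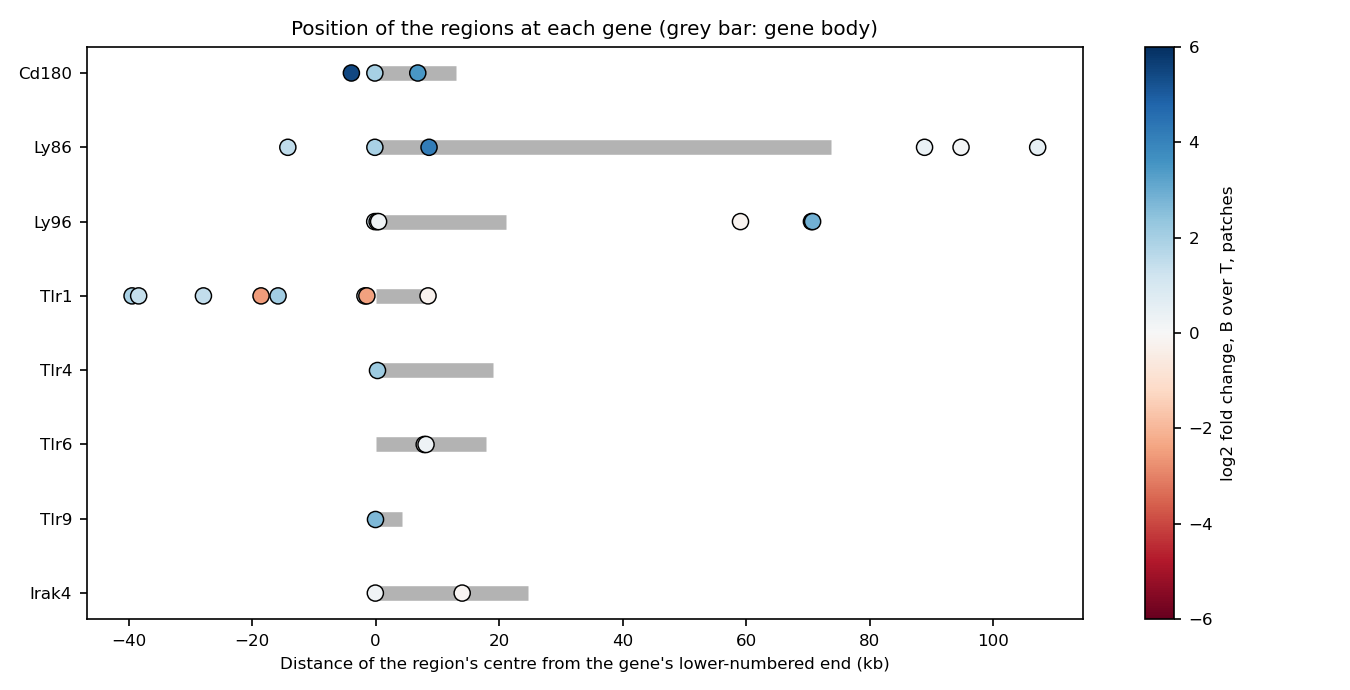
Position of the regions at the 8 genes, as the distance in kb of each region's centre from the gene's lower-numbered end; grey bars are gene bodies and colour is the log2 fold change of B over T in patches, blue for higher in B and red for higher in T. Blue points gather at Cd180, at the start of Ly86 and at Tlr9, and Tlr1 has blue and red points side by side.

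Summed over each gene's regions, Cd180 had 141 ± 65.3 normalized CPM in B patches and 15.2 ± 10.4 in T patches, and Tlr9 135 ± 35.6 in B and 20.9 ± 11.4 in T (5 libraries each, SD). These sums are scaled to the counts assigned to genes. The sums of 2 of 8 genes, Cd180 and Tlr9, were called, both higher in B, where 2.37% of 11132 genes were called higher in B, 1.89% higher in T and 4.26% either way. Groups did not overlap for the sums of Cd180, Tlr4 and Tlr9, 3 of 8 genes, with B higher, where 4.03% of genes had this. The other log2 fold changes of gene sums were 2.23 ± 0.78 for Tlr4, 1.12 ± 0.37 for Ly86, 0.89 ± 0.36 for Ly96, 0.50 ± 0.23 for Tlr1, 0.25 ± 0.22 for Irak4 and 0.10 ± 0.52 for Tlr6. Ly86 was called without T patch 2, whose sum was 202 normalized CPM, against a median of 72.9 over the T patches.

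Summed over their regions, macrophage and dendritic cell markers were higher in B patches, while natural killer cell markers overlapped between B and T patches. Regions at 3 of 9 macrophage and monocyte marker genes summed to 118 to 205 normalized CPM in B patches and 27.3 to 82.6 in T patches. Of these regions, 4 of 6 had a log2 fold change above 0. Lyz2, Cd68, Vcam1, Spic, Fcgr1 and Cd14 had no region, and the Adgre1 region was called, at 2.65 ± 0.70 (edgeR adjusted p = 0.0467). Regions at 4 of 7 dendritic cell genes summed to 159 to 219 in B patches and 50.9 to 96.3 in T patches, with 10 of 10 regions above 0 and 0 called, while Itgax, Zbtb46 and Xcr1 had none. The 6 neutrophil genes had no region, and 3 of 4 natural killer cell genes summed to 147 to 210 in B patches and 125 to 222 in T patches. The part of these cells in the values of Tlr4, Ly86 and the other members was not tested.

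The other genes of the pathway, 40 receptors, chaperones, adaptors, kinases and NF-kB or IRF factors, were read as a list. Tlr11 and Cd14 had no region, and 109 of the 111 regions of the other 38 genes were tested. In patches 1 of the 109 was called higher in B, where 1.22% of all regions were, and 0 lower, where 1.05% were. It lay inside Irak2, a kinase that acts after IRAK4 (chromosome 6, 113661605 to 113661831), with 55.5 ± 17.0 normalized CPM in B patches and 17.1 ± 8.13 in T patches (5 libraries each, SD; log2 fold change 1.71 ± 0.45, edgeR adjusted p = 0.0464). That call was lost in 9 of 10 fits that left out 1 library, with edgeR adjusted p from 0.0215 to 0.125, and with scaling by library size alone (0.0865). The log2 fold changes of the 109 regions ranged from -3.14 to 2.73 with a median of 0.19, and 63 of them lay above 0. Some large ones that were not called were named after their values were seen, and the highest of the list, 2.73, is not among them. They were 2.56 ± 0.89 and 2.49 ± 0.90 inside Unc93b1, whose product carries TLR9 to endosomes. Another was -3.14 ± 1.21 beyond Peli1, a ubiquitin ligase. The 2 Unc93b1 regions averaged 46.6 ± 26.2 and 26.2 ± 13.1 normalized CPM in B patches, against 7.84 ± 8.14 and 4.6 ± 4.69 in T patches.

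The regions whose level most resembled the Cd180 promoter region over the 10 patch libraries were at Vasp (Pearson r = 0.982), Syk (0.980), Nnmt (0.978), Pttg1ip2 (0.977) and Cd74 (0.974). They come from 11728 regions of at least median abundance, on log2 CPM. The 5 B and 5 T patches are the points of each correlation, so a shared difference between B and T enters it, and the values are descriptive. A shared 0 can enter it too, since the Cd180 promoter had 0 in T patch 2, the shallowest T patch. Its part in the 5 values was not tested. Among the 29 regions themselves the 406 pairwise correlations ranged from -0.864 to 0.982, with a median of 0.212. The highest was between the Cd180 promoter and the Tlr1 region at 27.8 kb, both at 0 in T patch 2.

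At 100 nuclei the counts were sparse, and the libraries are separate from the patch libraries. The genes were chosen with earlier results of these data known, and the labels do not state whether both captures share animals. The values at 100 nuclei are therefore no independent check of that choice. The region 3.84 kb before Cd180 had 25, 29, 0 and 31 counts in the B libraries, against 0 in each of the 4 T libraries. The region inside Cd180 had 0, 19, 0 and 17 in B, against 0 in every T library. The Cd180 promoter had reads in 1 library of each type, 51 counts in B library 3 and 25 in T library 2. Summed over the 3 regions, Cd180 had 25, 48, 51 and 48 counts in B libraries, against 0, 25, 0 and 0 in T libraries. Every B library thus had reads at Cd180, whereas a single T library did. The share of all genes with this pattern is not given here.

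The Ly86 start had 39, 4, 1 and 4 counts in B libraries, against 0, 34, 0 and 0 in T libraries. Tlr9 had 53, 89, 0 and 12 in B, against 0, 73, 0 and 0 in T. At the Cd180 promoter, the Ly86 start and Tlr9 all T reads thus came from T library 2. Tlr4 had 34, 3, 0 and 7 counts in B libraries, against 0 in every T library. Reads came in clumps, with most regions at 0 in most libraries, and the reads have no stated molecular identifiers, so a count such as 89 is not 89 molecules.

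The Irak4 start was the only member region with reads in all B libraries and no T library, at 116, 6, 18 and 49 counts in B against 0, 0, 0 and 0 in T. The share of all regions with this pattern is not given here, so how unusual it is cannot be read from these counts. Of all tested regions, 43.0% had reads in more B than T libraries. In patches the same region had a log2 fold change of 0.25 ± 0.24. Its edgeR p at 100 nuclei was 0.00596, and 0.356 after adjustment over all regions. T 100 nuclei libraries 3 and 4 had few regions with reads in general, while libraries 1 and 2 had reads in 41.0% and 40.6% of all tested regions.

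The Tlr1 region at 18.4 kb, lower in B patches, had 0 counts in every B library of 100 nuclei and 28, 18, 4 and 0 in the T libraries. The Tlr1 region at 1.311 kb had 0 in every B library and 0, 0, 72 and 0 in T, all from 1 library. The Tlr1 region at 38.2 kb had 116, 0, 104 and 52 counts in B, against 0, 0, 126 and 0 in T, and that at 39.3 kb 40, 0, 5 and 24 in B, against 0 in every T library. The Ly96 end, with a higher mean in B patches, had 0 in every B library of 100 nuclei and 55, 0, 22 and 0 in the T libraries. At Tlr6 the reads sat in a single library of each type, 93 and 12 counts in B library 2 at the 2 regions and 96 in T library 4 at the second.

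No member passed the test at 100 nuclei: 0 of 29 regions were called, where 0.0156% of all tested regions were (4 regions, all mitochondrial). The smallest adjusted p of a member was 0.356, shared by the Irak4 start and regions of Cd180, Ly86, Ly96, Tlr1, Tlr4 and Tlr6. In edgeR 6 of the 29 had an unadjusted p under 0.05, where 1413 of 25712 regions did. Among them, the region inside Ly86 and the Tlr6 region 832 bp upstream of a start had reads only in B library 2, 78 and 93 counts. DESeq2 called 0 of the 29 and 0 of all regions. Of gene sums 0 of 8 were called by edgeR, where 0.00898% of genes were, and DESeq2 called 1 of the 8, Irak4, where it called 87 of 11132 genes. The smallest gene p values were 0.010 for Irak4 (adjusted p = 0.601) and 0.058 for Tlr4 (adjusted p = 0.601, both edgeR). In edgeR fitted on the 100 nuclei libraries, no difference between B and T at a member passed the threshold at this depth. The difference between the contrast in patches and that at 100 nuclei was also tested over all regions, as an interaction across the 18 libraries. It includes the patch libraries on which the genes were chosen, so only counts are given. In edgeR 0 of 29 regions were called, where 0.0% of all were, and 9 of 29 had an unadjusted p under 0.05, where 6968 of 25712 did. DESeq2 called 8 of the 29, where it called 3255 of all.

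Counting libraries with any read gave a coarser view. Over the 29 regions, B libraries of 100 nuclei had reads in 45 of 116 region-by-library pairs, 38.8%, where the same libraries had reads in 35.8% over all tested regions. T libraries had reads in 17 of 116, 14.7%, where they had 27.4% over all. More B than T libraries had reads at 18 of 29 regions, 62.1%, where this held for 43.0% of all regions. Fewer B than T libraries had reads at 4 of 29, 13.8%, where 23.1% of all regions had this. These pairs share libraries and loci, and the genes were chosen with earlier results of these data known, so no test is attached. By library, 12, 9, 10 and 14 of the 29 regions had reads in B and 3, 7, 5 and 2 in T. The low T share lay in T libraries 1, 2 and 4, with 10.3%, 24.1% and 6.90% of the 29 regions, where they had reads in 41.0%, 40.6% and 12.7% of all tested. T library 3 had reads in 17.2% of the 29 and 15.2% of all.

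**Figure D4:**
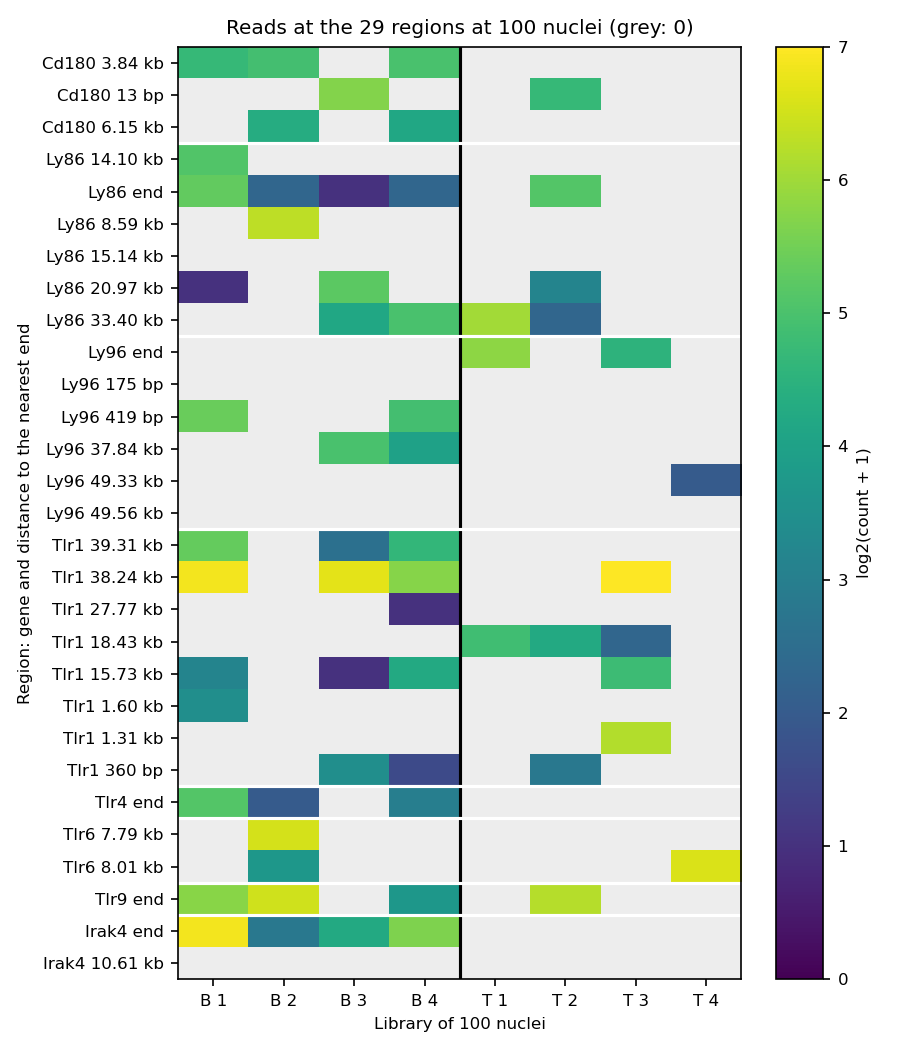
Counts at the 29 regions in each of the 8 libraries of 100 nuclei, as log2(count + 1), with B libraries left of the black line, T libraries right of it and grey for 0 counts. The region 3.84 kb before Cd180, Tlr4 and the Irak4 start have reads in B libraries only, and the Tlr1 region at 18.4 kb in T libraries only.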

How the data were processed

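Spleen B and T captures were profiled by ATAC-seq in 18 libraries. The authors deposited 1 table of raw counts, as whole numbers, for 27396 regions. Each of its columns was matched to a library by name, and 0 columns belonged to no sample. Per the submitters' processing notes, the build was mm10 and the tools were MACS2 2.2.7.1, Bowtie2 2.4.5, SAMtools 1.14, Picard, Trimmomatic 0.36, bcl2fastq 2.20, deepTools 3.5.2 and R 4.1.0. Their roles, duplicate removal and any transposase shift are not stated there, so region edges and counts carry those unknown choices. Coordinates are printed as deposited, and whether starts count from 0 or 1 is not given.

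Regions were assigned to the protein-coding RefSeq gene (GRCm38.p6) with the nearest end within 50 kb, 86.7% of all regions. Exons were not placed. Strand and start sites came from the RefSeq promoter entries. Counts were tested with edgeR 4.0.16 (R 4.3.3): TMM scaling, filterByExpr over the 4 groups at min.count 10, quasi-likelihood F-tests, and Benjamini-Hochberg adjustment over all regions or genes at 0.05. The SE is the absolute log2 fold change over the square root of F. Gene sums add the counts of a gene's regions. Correlations used log2 CPM with a prior count of 2. Alternatives were DESeq2 1.42.0, size-only scaling, no count filter, nuclear regions only, a 10 kb limit, a joint fit, a replicate block and each library left out. Omitting both patch libraries numbered 2, or T 100 nuclei libraries 3 and 4, was added after seeing the data. The region fits in patches and at 100 nuclei and the gene-sum fit at 100 nuclei were run on simulated data. Changes were placed only at features of at least median abundance. The interaction and the gene sums in patches were not simulated. The members, the pathway and marker lists and the tests were chosen with earlier results of these data known. The rule for named regions took, for each gene, the region nearest a gene end, the one with the highest mean and any called one; further regions were named after their values were seen.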

Additional observations from a re-analysis of the deposited data

Results flagged for a closer look

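In a group of 4 or 5 libraries, a library was listed when its gap to the nearest other library was a large share of the group's range (Dixon's 95% critical value). Of 78 groups examined, 12 held such a library, and chance lists about 1 in 20 groups. Groups of 100 nuclei with reads in fewer than 2 libraries were not examined. No explanation was tested for any of them.

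At Cd180, T patch 3 had 2.78 normalized CPM 3.84 kb upstream, against a T median of 0.251. At Ly86, T patch 2 had 20.9 at the region 15.1 kb beyond the far end and 48.2 at 33.4 kb, against T medians of 5.83 and 8.39, and its gene sum was 202, against 72.9. At Ly96, B patch 2 had 37.1 at 49.558 kb, against a B median of 9.41, and T patch 4 had 7.77 there, against a T median of 0. At 49.327 kb T patch 3 had 0.927, against a T median of 0. The Ly96 gene sum was 57.7 in B patch 5, against a B median of 99.2, and 88.9 in T patch 4, against a T median of 42.7. At Tlr1, T patch 3 had 9.01 at 15.7 kb, against a T median of 0.254, and the gene sum of T 100 nuclei library 3 was 414, against a group median of 47.2. At Irak4, T patch 1 had 24.7 at the region inside the gene, against a T median of 3.51.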

How the results depend on the processing

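There were 653 alternative log2 fold changes of the member regions and gene sums in patches, over 37 results. Of these, 633 moved by less than their SE, 20 moved by more and 0 changed sign among called values. Values that were not called could change sign when 1 library was left out, among them regions of Ly86, Ly96, Tlr1, Tlr6 and Irak4. Some of the 633 could not move. The 10 kb limit left the fit of the 16 member regions within it unchanged, and leaving out mitochondrial regions left the gene sums unchanged. Numbers of calls moved more. For B versus T in patches, 583 regions were called over the whole table, 2102 with DESeq2, 0 in the joint fit, 215 with the replicate block, 1156 without both libraries numbered 2, and 259 to 673 with 1 library left out; the members called were 4, 11 with DESeq2 (9 higher in B, 2 lower), 0 jointly, 2 with the block, 6 without the libraries numbered 2, and 2 to 5. At 100 nuclei, 4 regions were called, 0 with DESeq2, 0 over nuclear regions, 6955 in the joint fit, 0 with the block and 2 to 4 with 1 left out; the members called were 0, or 13 jointly (10 higher in B, 3 lower). For the interaction, 0 regions were called, 3255 with DESeq2, 92 without T libraries 3 and 4, and 0 to 419; the members called were 0, 8, 1, and 0 to 1. For gene sums in patches, 474 genes were called, 792 with DESeq2, 0 jointly, 764 without the libraries numbered 2, 246 within 10 kb, and 328 to 539; the members called were 2, 0 jointly, and 2 to 3. For gene sums at 100 nuclei, 1 gene was called, 87 with DESeq2, 1325 jointly, 0 with the block, 7 without T libraries 3 and 4, 0 within 10 kb, and 0 to 1; the members called were 0, 1 with DESeq2 and 2 jointly. The cause was not tested. The deviations of same-numbered B and T libraries from their group means had correlations of -0.0072 to 0.033 in patches and -0.014 to 0.019 at 100 nuclei. Only B patch 2 correlated most with the T library of its own number. Such correlations cannot decide whether same-numbered libraries share an animal or a section, which the labels do not state. At 100 nuclei the B libraries had reads in 35.8% and the T libraries in 27.4% of region-by-library pairs over all tested regions.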
